A study of Mus musculus with 9 samples.

Results

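The expression of genes of the cell cycle and of DNA replication was measured in pancreatic islets of female mice in which deletion of Ogt, the O-GlcNAc transferase gene, was directed to beta cells, and in islets of controls. The 34 genes were chosen by symbol, and all 34 had a row in both the count table and the FPKM table. The count table held 24393 gene symbols, with symbols turned into dates left out. They cover the G1 cyclins and their kinases, cyclins E and A, inhibitors of cyclin-dependent kinases (CDKs), the Rb and E2F pair, replication proteins, mitotic kinases and their partners, spindle checkpoint proteins and the proliferation markers Mki67 and Top2a. The comparison set 4 KO libraries (Rip-cre; Ogt f/f) against 5 WT libraries without Cre. Of the WT libraries, WT 1 and WT 3 were Ogt f/+, and WT 2, WT 4 and WT 5 were Ogt f/f, so both groups carry floxed Ogt alleles. Rip-cre expresses Cre from the rat insulin promoter, which acts in beta cells, so the other cells of the islet are not the intended target. No library with Rip-cre alone was among these groups, so an effect of Cre and loss of Ogt cannot be told apart. The labels give no age and do not say that each library came from its own animal, so p-values cover only the variation among libraries, which may be technical. Libraries WT 1, WT 2, WT 3, KO 1 and KO 2 belonged to the sequencing run that the labels call run 1. Libraries WT 4, WT 5, KO 3 and KO 4 belonged to the run called run 3 in one label and the 2nd run in another.

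A cell enters the cycle when D-type cyclins with Cdk4 or Cdk6 phosphorylate the retinoblastoma protein Rb1, which frees E2F factors to switch on genes of S phase. Cyclin E, cyclin A and Cdk2 then drive replication from origins that the Mcm helicase has licensed, and cyclin B with Cdk1 drives mitosis. Adult beta cells divide rarely, cyclin D2 is the main D-type cyclin of mouse beta cells, and INK4 and Kip inhibitors hold the kinases back. Ogt adds the O-GlcNAc sugar to nuclear and cytosolic proteins.

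Total counts ran from 3796043 to 4462754 in run 1 and from 5150443 to 6073537 in run 3. Between 9.62% and 28.5% of counts per library fell on Rn45s, the precursor of ribosomal RNA. Ogt stood at 54.1 to 83.0 CPM (counts scaled to library size with TMM factors) in the WT libraries and at 23.7 to 39.3 CPM in the KO libraries (log2 fold change -1.30, edgeR adjusted p = 2.44e-05), and the groups did not overlap. Beta cell markers (Ins1, Ins2 and 7 others) summed to 42570.1 CPM or more in every library, most of it from Ins2, Iapp and Ins1, so the labelled tissue carried its defining transcripts. Summed acinar markers ran from 416 to 5914 CPM in run 1 and from 85.2 to 212 CPM in run 3. In whole islets, fewer cells of a type and less RNA per cell cannot be told apart.

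Most of the 34 genes did not differ between KO and WT beyond the spread of the libraries, and the calls were few. Ccnd2 (cyclin D2) and Rb1 fell in KO islets, Mcm3 (a subunit of the replicative helicase) rose, and 29 further genes were tested without a call. Cdkn2a and Aurkb did not pass the filter on low counts, which left 32 of 34 tested. Calls are at adjusted p under 0.05 in edgeR's quasi-likelihood test with run in the model, adjusted over all 12501 genes tested. The 1 gene higher stands beside 9.56% of all tested genes called higher, and the 2 genes lower beside 8.96% called lower. The 3 calls of 32 compare with 18.5% called in either direction. At an unadjusted p under 0.05 there were 5 genes higher and 3 lower, beside 32.2% of all genes, and DESeq2 and limma-voom each called 1 higher and 2 lower. The median log2 fold change of the 32 genes was 0.17, beside 0.02 over all tested genes, with 22 above 0 and 10 below.

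**Figure D1:**
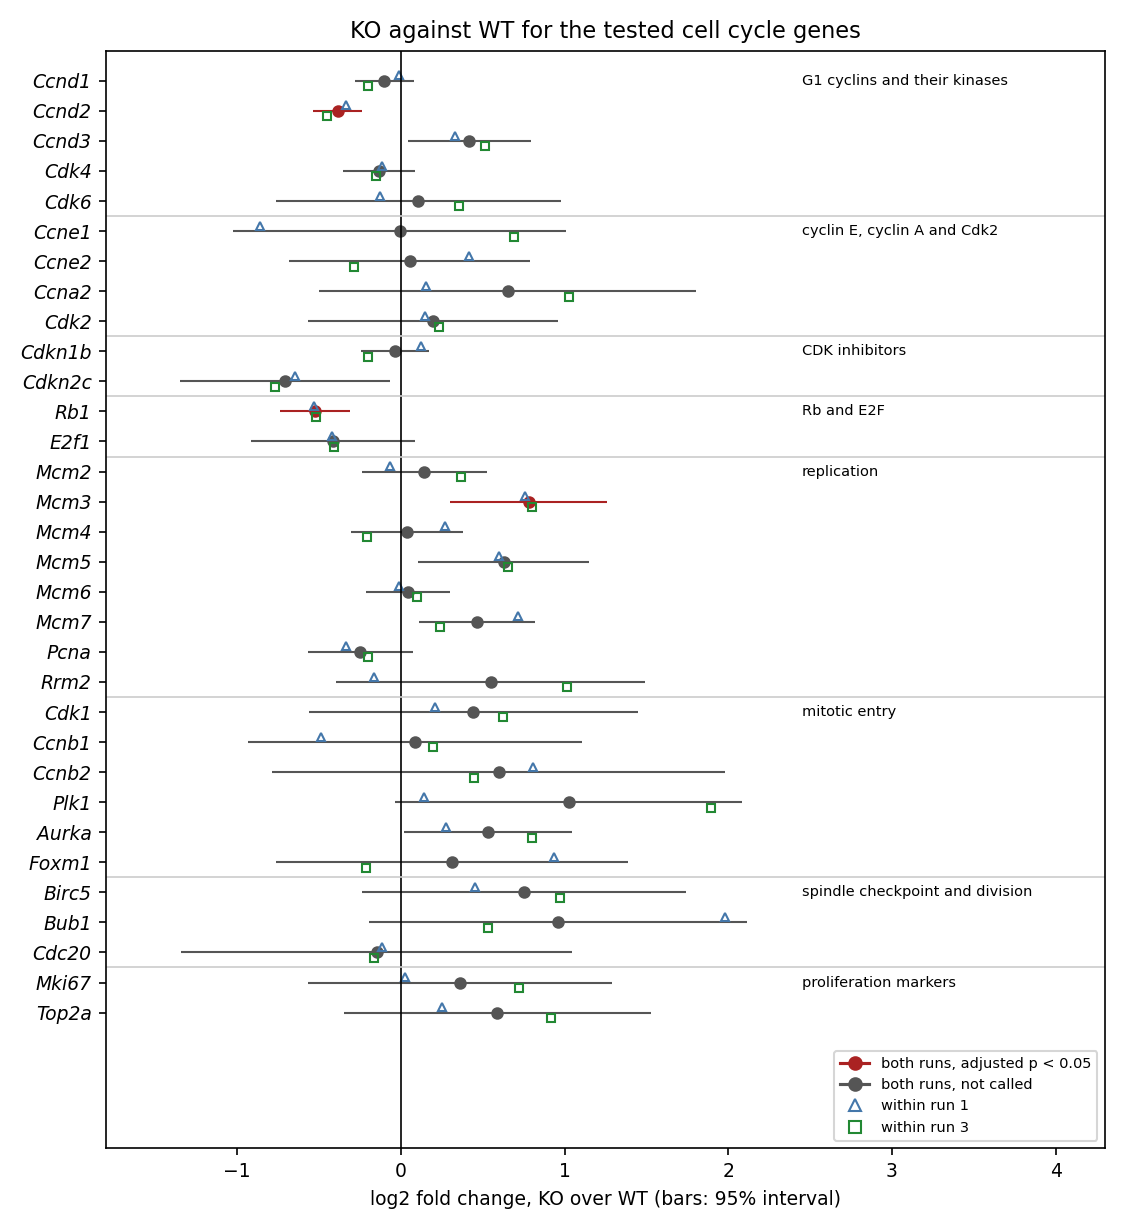
Log2 fold change of KO over WT (x axis) for the 32 tested cell cycle genes, grouped by role; circles give the fit over both runs with its 95% interval, triangles run 1 alone and squares run 3 alone. Ccnd2 and Rb1 lie below 0 with narrow intervals, Mcm3 lies above 0, and the intervals of the mitotic genes are wide.

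Levels per transcript length spanned a wide range. By the authors' FPKM, Ccnd2 was the most abundant of the 34, with a median of 185 FPKM over the 9 libraries, followed by Cdk4 at 40.0, Ccnd1 at 29.0 and Cdkn1b at 26.2 FPKM. The lowest FPKM of Ccnd2, 144, lay above the highest of Cdk4, 46.9, whereas the FPKM ranges of Ccnd1 (25.6 to 35.7) and Cdkn1b (21.5 to 38.6) overlapped. Mcm6 at 10.4, Ccnd3 at 10.3 and Rb1 at 8.75 came next in median FPKM, with overlapping ranges. At the low end, Cdkn2a had a median of 0.480, Aurkb of 0.353, Bub1 of 0.228 and Ccnb1 of 0.172 FPKM, and each was listed at 0 in at least 1 library.

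**Figure D2:**
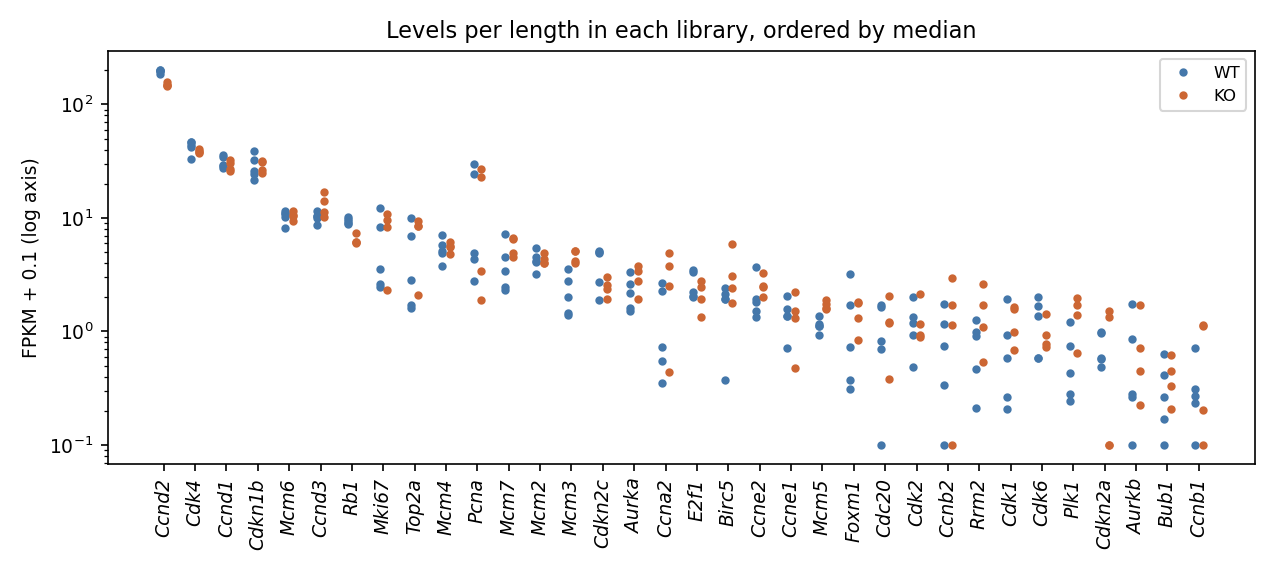
FPKM plus 0.1 (log y axis) of each of the 34 genes in each library, WT in blue and KO in orange, in order of the median over libraries. Ccnd2, with a median of 185 FPKM, stands above the rest, while Mki67 and Top2a spread widely within both groups and Pcna falls into a high and a low set of libraries.

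Among the G1 cyclins and their kinases, Ccnd2 fell and the other 4 were not called. Ccnd2, on chromosome 6 (mm10, 127125162 to 127152193, minus strand), had 1156, 1224 and 1239 CPM in WT 1, WT 2 and WT 3, and 915 and 998 CPM in KO 1 and KO 2. In run 3 it had 1063 CPM in WT 4 and 1070 CPM in WT 5, against 779 CPM in KO 3 and 782 CPM in KO 4. Every KO library lay below every WT library, over both runs together. The mean was 1151 ± 83.0 CPM in WT (SD, n = 5) and 869 ± 107 CPM in KO (SD, n = 4), and the log2 fold change was -0.39 (SE 0.07, edgeR adjusted p = 0.00164), a level 23.5% lower. The exact permutation test within runs gave p = 0.0167 (two-sided), the smallest that its 60 arrangements allow. The call was lost when run was left out of the model (adjusted p = 0.0714) and held in the other 25 alternatives. Beside this fall, 4 of 9 beta cell markers were also called lower in KO by edgeR (Iapp, Mafa, Nkx6-1 and Ucn3; median log2 fold change of the 9 markers -0.29) and 0 higher. Their sum was 47452.8 to 109872.4 CPM in WT and 42570.1 to 82835.2 CPM in KO. Of 5 delta and PP cell markers, 2 (Rbp4 and Pyy) were called higher and 0 lower (median log2 fold change 0.54), with sums of 2975 to 4021 CPM in WT and 3898 to 5501 CPM in KO. Among other lists, edgeR called 1 of 6 tested alpha, 1 of 7 fibroblast, stellate and pericyte and 1 of 9 macrophage markers higher and 0 lower. It called 1 of 4 Schwann and neural and 1 of 1 lymphocyte markers higher, and 2 of 11 acinar markers lower. Of 5 duct and 8 endothelial markers it called 0. The part of these markers' differences in the level of Ccnd2 was not tested beyond covariate fits with the acinar, macrophage, endothelial or fibroblast list.

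Ccnd1 (cyclin D1), the other abundant D-type cyclin here, was not called. Its level was 117, 117 and 111 CPM in WT 1 to WT 3, 123 and 105 CPM in KO 1 and KO 2, 116 and 120 CPM in WT 4 and WT 5, and 93.7 and 111 CPM in KO 3 and KO 4. KO and WT libraries overlapped in run 1, while in run 3 both KO libraries were below both WT libraries. Its log2 fold change was -0.10 (95% interval -0.28 to 0.08, edgeR adjusted p = 0.450). Cdk4, the kinase partner of the D-type cyclins in beta cells, had 62.5, 61.5 and 45.5 CPM in WT 1 to WT 3, 51.4 and 52.6 CPM in KO 1 and KO 2, 55.3 and 54.6 CPM in WT 4 and WT 5, and 47.0 and 51.8 CPM in KO 3 and KO 4. The groups overlapped in run 1, where WT 3 was the lowest, and the log2 fold change was -0.13 (95% interval -0.36 to 0.09). Ccnd3 (cyclin D3) was 16.0 ± 2.02 CPM in WT (SD, n = 5) and 20.8 ± 5.81 CPM in KO (SD, n = 4), a log2 fold change of 0.42 that missed the threshold (edgeR adjusted p = 0.116). KO 1 at 27.7 CPM and KO 3 at 23.6 CPM were its high libraries, while KO 2 at 16.1 CPM and KO 4 at 16.0 CPM were not. The gene was called in 1 of 26 alternatives, without KO 2 (log2 fold change 0.58, edgeR adjusted p = 0.0317). Ccnd3 has a processed pseudogene, Ccnd3-ps, that could share reads. Cdk6 was low, at 1.18 to 5.18 CPM, with overlapping groups.

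Cyclin E, cyclin A and Cdk2, which act at the start of S phase, were scarce in these islets, and 0 of the 4 genes was called by edgeR, DESeq2 or limma-voom or had an unadjusted p under 0.05. Ccne1 ranged from 1.01 to 4.99 CPM, Ccne2 from 2.44 to 8.43 CPM and Cdk2 from 1.30 to 4.65 CPM over the 9 libraries. Their log2 fold changes were -0.01, 0.05 and 0.19, with 95% intervals of -1.03 to 1.01, -0.68 to 0.79 and -0.57 to 0.96. Ccna2 (cyclin A2) varied most, from 0.252 CPM in KO 1 to 11.0 CPM in KO 3, and its log2 fold change of 0.65 had a 95% interval of -0.50 to 1.80.

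Of the CDK inhibitors, 2 were tested and 0 were called by edgeR, DESeq2 or limma-voom. Cdkn1b (p27Kip1), which binds Cdk2 and Cdk4 complexes, had 61.6, 66.4 and 54.9 CPM in WT 1 to WT 3, 64.2 and 68.4 CPM in KO 1 and KO 2, 75.1 and 87.9 CPM in WT 4 and WT 5, and 70.9 and 70.7 CPM in KO 3 and KO 4. In run 1 KO 1 lay within the WT range and KO 2 just above it, in run 3 both KO libraries lay below both WT libraries, and the log2 fold change was -0.03 (95% interval -0.24 to 0.17). Cdkn2c (p18Ink4c), an inhibitor of Cdk4 and Cdk6, was 5.77 ± 1.57 CPM in WT (SD, n = 5) and 3.57 ± 0.735 CPM in KO (SD, n = 4). KO was at -0.71 relative to WT on the log2 scale (SE 0.30), which had an unadjusted edgeR p of 0.0333 and missed the threshold (adjusted p = 0.120). Both KO libraries of run 3 lay below both WT libraries, and in run 1 KO 2 at 4.38 CPM lay above WT 2 at 3.56 CPM.

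Cdkn2a, whose locus encodes p16Ink4a and p19Arf, which the counts cannot separate, was close to the floor. It had 3, 1 and 3 counts in WT 1 to WT 3, 0 counts in KO 1 and KO 2, 2 counts in each of WT 4 and WT 5, and 7 counts in each of KO 3 and KO 4. KO was thus below WT in run 1 and above it in run 3, all at 7 counts or fewer. A count of 0 allows up to 0.756 CPM in KO 1 and 0.730 CPM in KO 2 (3 counts, counting error only), which leaves a difference in run 1 not detectable at this depth.

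Rb1, the pocket protein that restrains E2F factors, fell, and E2f1 was lower without a call. Rb1, on chromosome 14 (mm10, 73183673 to 73325822, minus strand), had 49.3, 49.2 and 49.0 CPM in WT 1, WT 2 and WT 3, and 31.2 and 36.8 CPM in KO 1 and KO 2. In run 3 it had 43.2 CPM in WT 4 and 44.8 CPM in WT 5, against 33.6 CPM in KO 3 and 28.0 CPM in KO 4. All 4 KO libraries were below all 5 WT libraries. The mean was 47.1 ± 2.90 CPM in WT (SD, n = 5) and 32.4 ± 3.69 CPM in KO (SD, n = 4), which gave -0.52 on the log2 scale (SE 0.10, edgeR adjusted p = 0.00234), a level 30.5% lower. The exact permutation test gave p = 0.0167 (two-sided), the smallest possible, and the call held in all 26 alternatives over both runs. E2f1, the S-phase activator, was 6.92 ± 1.63 CPM in WT (SD, n = 5) and 5.40 ± 1.43 CPM in KO (SD, n = 4). Every KO library was below every WT library of its run, but the log2 fold change of -0.41 missed the threshold (SE 0.24, edgeR adjusted p = 0.245).

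**Figure D3:**
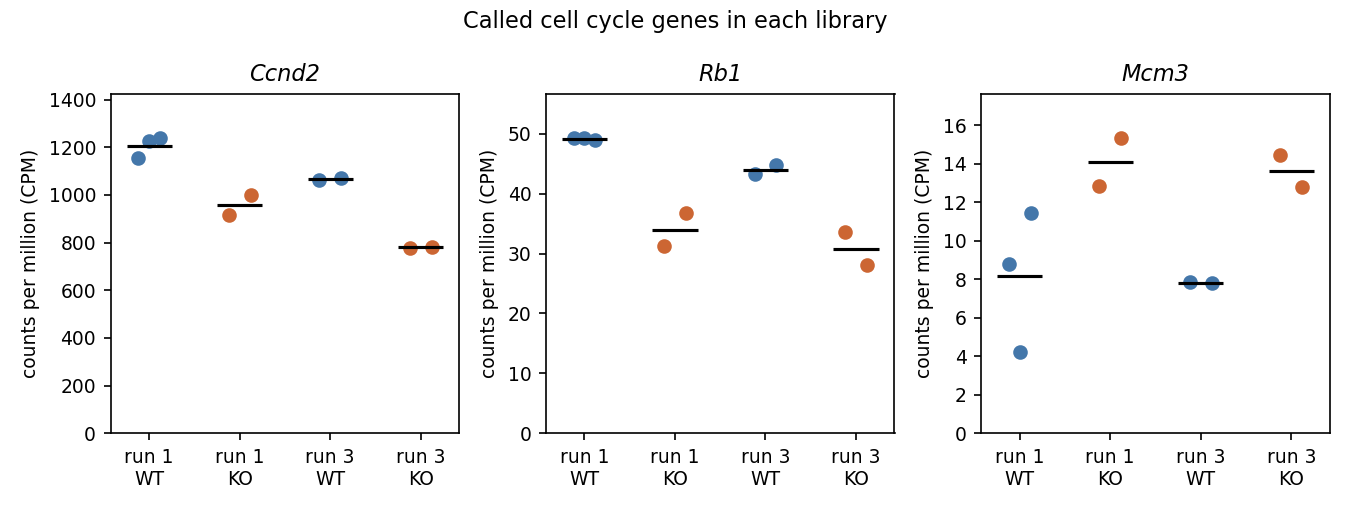
CPM (y axes, from 0) of Ccnd2, Rb1 and Mcm3 in each library, by run and group; points are libraries and bars are group means. KO libraries lie below the WT libraries of their run for Ccnd2 and Rb1, and above them for Mcm3.

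In each run, every KO library lay above every WT library for 2 of the 32 tested genes (Mcm3 and Mcm5) and below every one for 3 (Ccnd2, Rb1 and E2f1), together 5 of 32 beside 22.9% of all tested genes. Within run 1, edgeR called Ccnd2 (log2 fold change -0.33, adjusted p = 0.0438) and Rb1 (-0.53, adjusted p = 0.0315), beside 10.4% of all genes. Within run 3, edgeR called Ccnd2 alone (-0.45, adjusted p = 0.0286), beside 4.32% of all genes, and Rb1 had a log2 fold change of -0.52 (adjusted p = 0.0656). Each of these calls rested on few libraries: without WT 1, WT 2, KO 1 or KO 2 no gene was called within run 1, and without any 1 library of run 3 none was called within run 3. The test of the difference between the runs called 0 of the 32 genes, beside 0% of all genes, and 0 of them had an unadjusted p under 0.05.

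The Mcm genes encode the 6 subunits of the helicase that is loaded at origins before S phase. Of these 6, Mcm3 rose, Mcm5 and Mcm7 were higher without passing the threshold, and Mcm2, Mcm4 and Mcm6 were not called. E2F factors bind many replication gene promoters, so promoters were searched on both strands for 4 E2F strings, with TTCCCGC as the first, then the string TTGGCGC as the next, TTCGCGC as the third and finally TTGCCGC as the last. Each match was counted, overlapping ones included. The window of 300 bases, from 250 before to 50 after the start in RefSeq (build GRCm38.p6), was matched for 26 of the 34 genes. The other 8 had no promoter to search: Ccnd1, Ccnd2, Ccne2, Ccna2, Rb1, Mcm4, Foxm1 and Aurkb. An E2F string was present for 11 of the 26 genes (42.3%), beside 9.57% of 32851 promoters. For this and the later motifs, a gene counted if any of its promoters held a match, and each of the 32851 promoters counted singly. Of the 26 genes, 4 (Ccnd3, Cdkn2a, Cdkn2c and Mcm7) had more than 1 promoter, which raises the share of genes. The 11 were Mcm3, Mcm5, Mcm6, Mcm7, Rrm2, Cdk1, Ccnb1, Cdk2, Cdkn2a, Cdkn2c and Mki67, so genes with an E2F string included both Mcm3 and the hardly altered Mcm6. A match describes the letters and not a bound site. The Mcm3 promoter is shown because Mcm3 was the gene that rose, from 250 bases before to 30 after its start at chr1:20820283-20820562 on the minus strand, with the E2F string (here on the opposite strand, 20 to 26 bases after the start) in capitals and the other 2 matches past the printed end:
Mcm3: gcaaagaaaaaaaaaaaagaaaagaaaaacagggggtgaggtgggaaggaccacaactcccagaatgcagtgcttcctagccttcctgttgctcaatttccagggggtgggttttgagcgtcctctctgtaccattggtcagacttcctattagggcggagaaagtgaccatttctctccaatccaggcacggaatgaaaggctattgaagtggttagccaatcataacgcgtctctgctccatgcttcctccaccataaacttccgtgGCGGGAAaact

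Mcm3, on chromosome 1 (mm10, 20802968 to 20820312, minus strand), had 8.79, 4.21 and 11.4 CPM in WT 1, WT 2 and WT 3, and 12.8 and 15.3 CPM in KO 1 and KO 2. In run 3 it had 7.83 CPM in WT 4 and 7.77 CPM in WT 5, against 14.5 CPM in KO 3 and 12.8 CPM in KO 4. All KO libraries were above all WT libraries, and WT 2 was the lowest. The mean was 8.01 ± 2.59 CPM in WT (SD, n = 5) and 13.9 ± 1.26 CPM in KO (SD, n = 4), a rise of 0.78 on the log2 scale (SE 0.23, edgeR adjusted p = 0.0254), and the exact permutation test gave p = 0.0333 (two-sided). The log2 fold change was 0.76 within run 1 and 0.80 within run 3, neither called (edgeR adjusted p = 0.156 and 0.200). The call held in 16 of 26 alternatives and was lost without KO 2 (edgeR adjusted p = 0.0721), WT 4 (0.0564), WT 5 (0.0558) or KO 3 (0.0716), while the log2 fold change without any 1 library stayed between 0.65 and 0.92. It was also lost with no run term (edgeR adjusted p = 0.0828) and with the acinar (0.103) or macrophage (0.112) marker list as a covariate. The other losses were without both WT 2 and WT 5 (edgeR adjusted p = 0.0919), without both KO 2 and WT 2 (0.0823), and with FPKM and no filter (limma adjusted p = 0.0531). In run 1 the summed acinar markers were 2375 to 5914 CPM in WT and 416 to 2044 CPM in KO, and their part in the Mcm3 difference was not tested further.

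Mcm5 had 3.66, 4.21 and 2.98 CPM in WT 1 to WT 3, 5.54 and 5.36 CPM in KO 1 and KO 2, 5.57 and 5.91 CPM in WT 4 and WT 5, and 10.5 and 7.63 CPM in KO 3 and KO 4. KO exceeded WT in each run. By CPM all libraries of run 3 exceeded those of run 1, WT 4 over KO 1 by little. By FPKM they did not, as WT 4 (1.01) and WT 5 (1.26) lay below KO 1 (1.52) and KO 2 (1.47). The log2 fold change of Mcm5 was 0.63 (SE 0.25, edgeR adjusted p = 0.0906). Mcm7 was 13.7 ± 5.53 CPM in WT (SD, n = 5) and 19.6 ± 3.56 CPM in KO (SD, n = 4), or 0.46 higher on the log2 scale (SE 0.17, edgeR adjusted p = 0.0652). Both KO libraries exceeded the 3 WT libraries in run 1, and WT 5 at 22.5 CPM lay among the KO libraries in run 3. Without WT 5, Mcm7 was called (log2 fold change 0.62, edgeR adjusted p = 0.0195). The log2 fold changes of Mcm2, Mcm4 and Mcm6 were 0.14, 0.04 and 0.04, with 95% intervals of -0.24 to 0.52, -0.30 to 0.38 and -0.21 to 0.30.

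Pcna, the sliding clamp of the replicative polymerases, differed between runs far more than between genotypes. It had 9.04, 8.10 and 7.21 CPM in WT 1 to WT 3, 6.80 and 6.09 CPM in KO 1 and KO 2, 33.4 and 29.1 CPM in WT 4 and WT 5, and 29.7 and 24.8 CPM in KO 3 and KO 4. Run 3 exceeded run 1 by a log2 fold change of 2.00 (edgeR adjusted p = 6.72e-08), while KO against WT gave -0.25 (95% interval -0.57 to 0.07). The annotation lists 2 processed pseudogenes, Pcna-ps1 and Pcna-ps2, and the treatment of reads that match several places is not stated by the labels, so the level of Pcna is uncertain. Rrm2, the S-phase subunit of ribonucleotide reductase, ranged from 0.489 CPM in WT 1 to 6.46 CPM in KO 4 and was not called (log2 fold change 0.55, 95% interval -0.39 to 1.49).

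The run differences of other genes were also tested, with genotype in the model. Run 3 was higher for 6 of the 32 genes (Cdkn1b, Mcm5, Mcm7, Pcna, Ccnb1 and Bub1), beside 15.1% of all genes, and lower for 1 (Ccnd2, log2 fold change -0.23), beside 16.3%. The fall of Ccnd2 was seen in counts and not by FPKM in WT, at 185, 195 and 198 FPKM in run 1 and 202 and 203 FPKM in run 3. In KO, Ccnd2 had 144 and 159 FPKM in run 1 and 148 and 148 FPKM in run 3. Ccnb1 (cyclin B1), with a processed pseudogene Ccnb1-ps, had 0 to 3 counts in each library of run 1 and 14 to 24 counts in each library of run 3.

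The genes of mitosis varied widely among libraries of both groups, and 0 of the 11 tested was called by edgeR, DESeq2 or limma-voom. By unadjusted p under 0.05, 1 of them, Aurka, was higher, beside 32.2% of all tested genes in either direction. Mitotic genes often carry a cell cycle homology region (CHR), which the DREAM and MuvB complexes bind, together with CCAAT boxes. A CHR string, either the form TTTGAA or the palindromic form TTCGAA, was present for 10 of the 26 genes with a promoter (38.5%), beside 19.2% of 32851 promoters, and CCAAT for 21 (80.8%), beside 37.4%. An E2F match on the minus strand can overlap a CCAAT match. The 10 genes with a CHR string were Cdk1, Ccnb2, Plk1, Aurka, Bub1, Cdc20, Mki67, Top2a, Mcm2 and Mcm7. The promoters of Mki67 (chr7:135716350-135716629, minus strand) and Top2a (chr11:99024160-99024439, minus strand) are shown because these genes carry most of the mitotic counts, a choice made after their values were seen. Capitals mark the CHR strings in both (4 in Top2a, the last of them on the opposite strand) and, in Mki67, also the E2F string TTGGCGC after its 2 CHR strings:
Mki67: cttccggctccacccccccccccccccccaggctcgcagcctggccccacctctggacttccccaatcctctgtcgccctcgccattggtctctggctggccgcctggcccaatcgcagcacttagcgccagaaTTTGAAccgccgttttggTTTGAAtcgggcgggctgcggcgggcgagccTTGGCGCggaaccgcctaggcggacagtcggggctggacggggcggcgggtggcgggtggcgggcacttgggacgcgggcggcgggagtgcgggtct
Top2a: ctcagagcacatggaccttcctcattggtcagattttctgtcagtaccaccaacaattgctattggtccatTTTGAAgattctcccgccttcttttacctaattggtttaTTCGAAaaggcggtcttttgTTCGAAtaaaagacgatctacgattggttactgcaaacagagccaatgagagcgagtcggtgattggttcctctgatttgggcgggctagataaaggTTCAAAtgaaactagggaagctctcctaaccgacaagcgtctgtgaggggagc

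Mki67, the antigen that marks cycling cells, had 26.1, 28.8 and 134 CPM in WT 1, WT 2 and WT 3, and 24.9 and 104 CPM in KO 1 and KO 2. In run 3 it had 32.4 and 77.2 CPM in WT 4 and WT 5, and 101 and 78.8 CPM in KO 3 and KO 4. WT 3 and KO 2 were the high libraries of run 1, 1 from each group, whereas in run 3 both KO libraries were above both WT libraries, KO 4 by little. The mean was 59.6 ± 46.3 CPM in WT (SD, n = 5) and 77.2 ± 36.6 CPM in KO (SD, n = 4), a difference smaller than either SD. The log2 fold change was 0.36 with a 95% interval of -0.57 to 1.29 (edgeR adjusted p = 0.615), and 0.02 within run 1 and 0.72 within run 3. Left-out libraries moved the log2 fold change between 0.03 and 0.94 without a call.

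Top2a, the topoisomerase that untangles chromosomes before division, was high in the same 2 libraries of run 1 as Mki67. It had 9.04, 10.0 and 55.7 CPM in WT 1, WT 2 and WT 3, 11.6 and 48.7 CPM in KO 1 and KO 2, 17.8 and 38.5 CPM in WT 4 and WT 5, and 56.0 and 49.7 CPM in KO 3 and KO 4. WT 3 and KO 2 stood far above the other libraries of run 1, and both KO libraries of run 3 lay above both WT libraries. Its log2 fold change was 0.59 with a 95% interval of -0.35 to 1.53 (edgeR adjusted p = 0.390). Without WT 3 the gene was called, at a log2 fold change of 1.20 (edgeR adjusted p = 0.0176).

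Cdk1, the kinase of mitotic entry, had 0.977, 0.324 and 5.47 CPM in WT 1, WT 2 and WT 3, 2.52 and 2.92 CPM in KO 1 and KO 2, 2.71 and 4.56 CPM in WT 4 and WT 5, and 4.98 and 6.16 CPM in KO 3 and KO 4. WT 3 was the highest of run 1, and in run 3 KO lay above WT. Its log2 fold change was 0.44 (95% interval -0.56 to 1.45). Aurka, a spindle pole kinase, was 5.79 ± 1.37 CPM in WT (SD, n = 5) and 8.14 ± 0.796 CPM in KO (SD, n = 4), or 0.53 higher on the log2 scale (SE 0.24, edgeR adjusted p = 0.142). WT 2 at 8.10 CPM lay among the KO libraries. Plk1, a kinase of mitotic entry and exit, had the largest log2 fold change of the 32 genes, 1.03, with a 95% interval of -0.03 to 2.08 (edgeR adjusted p = 0.168), from 2 to 30 counts per library. With the Ogt f/f controls alone, which leaves out WT 1 and WT 3, Plk1 was called (log2 fold change 1.86, edgeR adjusted p = 0.0333).

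Ccnb2 has a transcribed pseudogene, Ccnb2-ps, that could share its reads. Counts of the other mitotic genes in run 1 ran from 0 to 3 per library for Ccnb1, from 0 to 18 for Ccnb2 and from 3 to 35 for Foxm1, with Aurkb, Bub1, Cdc20 and Birc5 at 11 counts or fewer. Ccnb1, Ccnb2, Aurkb, Bub1 and Cdc20 each had 0 counts in WT 1, where 3 counts, the limit that a count of 0 allows, equal 0.733 CPM. Their highest levels were 3.52 CPM (Ccnb1, KO 4), 4.55 CPM (Ccnb2, KO 4), 3.32 CPM (Aurkb, KO 3), 4.49 CPM (Bub1, KO 3) and 5.41 CPM (Cdc20, WT 5). Foxm1, a transcription factor of mitotic genes, ranged from 0.972 CPM in WT 2 to 13.0 CPM in WT 5, and Birc5 (survivin) from 0.244 CPM in WT 1 to 5.98 CPM in KO 3. The 95% intervals of the log2 fold changes of the tested ones included 0, as for Foxm1 (-0.76 to 1.39), Birc5 (-0.24 to 1.74), Bub1 (-0.19 to 2.11) and Cdc20 (-1.34 to 1.05).

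Summed over the 12 mitotic genes and markers, the level was 44.0, 54.4 and 222 CPM in WT 1, WT 2 and WT 3, and 53.9 and 188 CPM in KO 1 and KO 2. In run 3 the sum was 75.7 and 156 CPM in WT 4 and WT 5, and 205 and 173 CPM in KO 3 and KO 4. In run 1, WT 3 was the highest library for 7 of the 12 genes and KO 2 for 4, beside 17.0% and 22.3% of all tested genes. In run 3, KO 3 was the highest for 6, KO 4 for 4 and WT 5 for 2, beside 25.6%, 23.5% and 25.7% of all tested genes, and WT 4 for 0. The 6 Mcm genes did not follow that order in run 1, where their sum was 92.7 CPM in WT 3 against 98.7 CPM in WT 1. Over both runs the Mcm sum was 73.5 to 103.0 CPM in WT and 103.5 to 115 CPM in KO, so the groups did not overlap but lay close together. Summed endothelial markers (8 genes, Pecam1 and Plvap among them) were also highest in WT 3 and KO 2 within run 1, at 434 and 529 CPM, against 239 to 271 CPM in the other 3 libraries. In run 3 they were 131.6 to 173 CPM, highest in WT 4, where the mitotic sum was lowest. Summed beta cell markers were likewise highest in WT 3 and KO 2 within run 1, at 109872 and 82835 CPM. The others of run 1 had 55631 to 64557 CPM. In run 3 the beta cell markers were 42570 to 54012 CPM, also highest in WT 4. Summed fibroblast, stellate and pericyte markers were 102 to 317 CPM in run 1, lowest in WT 3, and 508 to 870 CPM in run 3, with KO above WT. Lymphocyte markers were low but higher in KO, with sums of at most 7.60 CPM in WT and of 8.82 to 19.7 CPM in KO, without overlap. The highest sum was in KO 2. Only 1 lymphocyte marker passed the filter, and it was called higher in KO (log2 fold change 1.42). Cd3g, another marker of that list, was at 0 in all 5 libraries of run 1. Macrophage markers summed to 64.5 to 83.6 CPM. The part of these cell types in the mitotic levels was not tested beyond fits with a marker list as covariate (acinar, macrophage, endothelial or fibroblast). No fit used the beta cell list. With the fibroblast list Mki67 (log2 fold change 1.87, edgeR adjusted p = 0.00416), Top2a (2.33, adjusted p = 0.000977) and Plk1 (2.50, adjusted p = 0.0216) were called higher. Without a covariate their log2 fold changes were 0.36, 0.59 and 1.03, none called. All 7 tested markers of the fibroblast list had positive log2 fold changes in KO, and 6 were called higher in run 3. That covariate thus partly tracks genotype and run, and its fit cannot fully separate it from genotype. With the acinar, macrophage or endothelial list none of Mki67, Top2a and Plk1 was called.

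**Figure D4:**
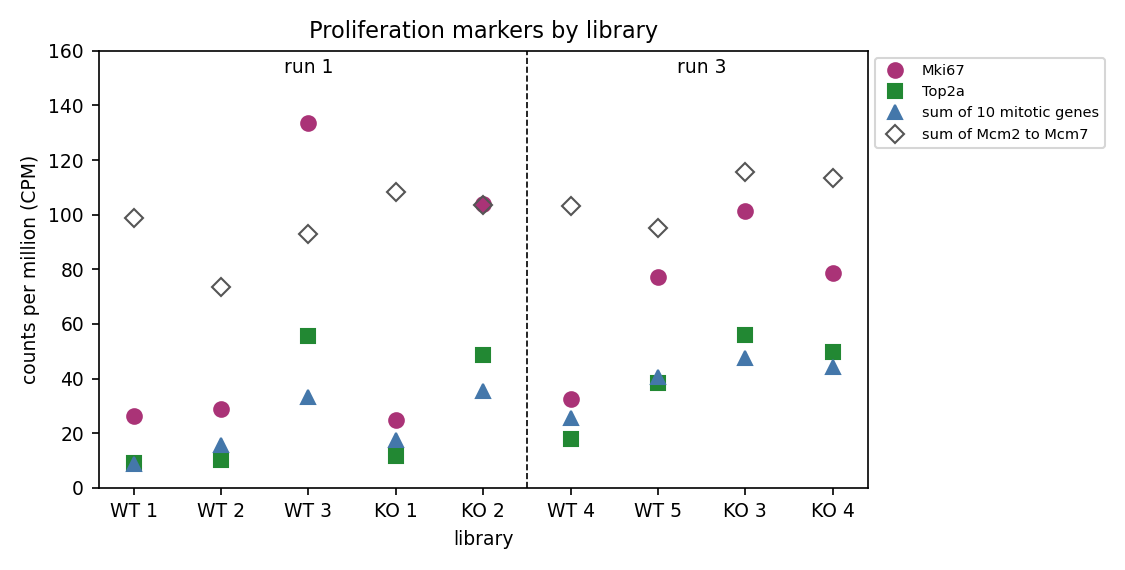
CPM (y axis, from 0) of Mki67, Top2a, the sum of the 10 other mitotic genes and the sum of Mcm2 to Mcm7 in each library, runs separated by the dashed line. In run 1, WT 3 and KO 2 are high for Mki67, Top2a and the mitotic sum. Over both runs the Mcm sum stays between 73.5 and 115 CPM. Every KO library is above every WT library for the Mcm sum, KO 2 (103.5 CPM) only just above WT 4 (103.0 CPM).

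Further genes of the same machinery were read from 10 lists made by function. Of their 169 genes 150 were tested, 7 were called higher, 8 lower and 135 not called, with a median log2 fold change of 0.07. DESeq2 called 7 higher and 9 lower. Over the lists together, the share called was below that of all tested genes (18.5%).

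Among genes that set the level of CDK inhibitors, 2 rose and 2 fell of 9 tested, beside 18.5% of all tested genes called, and DESeq2 called 1 higher and 2 lower. Men1 (menin, a chromatin cofactor that sustains Cdkn1b and Cdkn2c in endocrine cells) rose, with 32.0, 38.9 and 38.5 CPM in WT 1 to WT 3, 41.1 and 40.4 CPM in KO 1 and KO 2, 30.6 and 26.5 CPM in WT 4 and WT 5, and 46.5 and 43.9 CPM in KO 3 and KO 4. KO lay above WT in each run, and the log2 fold change was 0.40 (edgeR adjusted p = 0.0312). Fbxw7, which marks cyclin E for destruction, rose by a log2 fold change of 0.30 (edgeR adjusted p = 0.0387), and DESeq2 did not call it (adjusted p = 0.0520). Cul1, the scaffold of the ubiquitin ligase that Fbxw7 works in, fell by 0.33 on the log2 scale (edgeR adjusted p = 0.00808), with every KO library below every WT library. Ezh2, the polycomb methyltransferase that silences Cdkn2a, fell by 0.61 on the log2 scale (edgeR adjusted p = 0.0413). Of the other CDK inhibitors, 0 of 4 tested were called by edgeR or DESeq2 and 1, Cdkn1a (p21Cip1), had an unadjusted p under 0.05, at a log2 fold change of 0.35 (edgeR adjusted p = 0.122), while Cdkn2b gave 0.14.

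Of 25 tested cyclins and CDKs outside the core cycle, 3 fell and 0 rose in edgeR, beside 18.5% of all tested genes called in either direction. By unadjusted p 4 were higher and 7 lower, beside 32.2% of all tested genes. DESeq2 also called 3 lower, of which 2 were shared. Ccng1 (cyclin G1, a p53 target) fell by 0.48, Ccnh (cyclin H of the CDK-activating kinase) by 0.42 and Cdk16 by 0.33 on the log2 scale (edgeR adjusted p = 0.0160, 0.0400 and 0.0317). DESeq2 did not call Ccnh (adjusted p = 0.0532), and called Ccni instead. None of the 16 tested pocket protein, E2F and DREAM genes was called by edgeR or DESeq2, and 0 had an unadjusted p under 0.05. Nearest to a call there were E2f4 (log2 fold change -0.23) and Lin52 (0.57).

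Of the 20 tested genes of origin licensing and firing, 2 rose and 1 fell, beside 18.5% of all tested genes called in either direction. Gins3, a subunit of the active helicase, rose by a log2 fold change of 1.05 (edgeR adjusted p = 0.0204), and Wdhd1, which couples the helicase to polymerase alpha, by 0.71 (edgeR adjusted p = 0.0143). Orc2, an origin recognition subunit, fell by 0.44 on the log2 scale (edgeR adjusted p = 0.0108). Of 22 tested polymerase, clamp loader and ligase genes, 2 rose and 1 fell, beside the same 18.5%. Fen1, the flap endonuclease of Okazaki fragments, had 8.06, 8.74 and 9.95 CPM in WT 1 to WT 3, 17.4 and 12.4 CPM in KO 1 and KO 2, 9.64 and 8.62 CPM in WT 4 and WT 5, and 16.1 and 15.0 CPM in KO 3 and KO 4. All KO libraries exceeded all WT libraries, and the log2 fold change was 0.75 (edgeR adjusted p = 0.00793). Within the clamp loader, Rfc3 rose by 0.67 and Rfc1 fell by 0.30 on the log2 scale (edgeR adjusted p = 0.0290 and 0.0241). In deoxynucleotide supply, 1 of 7 tested genes rose and 1 fell, again beside 18.5%. Dut, which clears dUTP, rose by 0.41 on the log2 scale (edgeR adjusted p = 0.0256). Rrm2b, the p53-dependent subunit of ribonucleotide reductase that serves cells outside S phase, fell by 0.44 on the log2 scale (edgeR adjusted p = 0.00236), and edgeR also called it in each run.

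The lists of mitosis held 0 calls in edgeR, beside 18.5% of all tested genes called. Their counts by unadjusted p, given next, stand beside 32.2% of all tested genes. For entry into mitosis 2 of 7 tested genes were lower by unadjusted p, Cdc25a (log2 fold change -0.46, edgeR adjusted p = 0.0662) and Wee1 (-0.47, adjusted p = 0.118), and DESeq2 called 0. For the kinetochore, spindle, condensin and cytokinesis list, 3 of 24 were higher and 1 lower by unadjusted p, with 1 called higher by DESeq2, Bub1b. Bub1b (a spindle checkpoint kinase) had a log2 fold change of 0.90 (edgeR adjusted p = 0.0586), and its checkpoint partner Bub3 of -0.42 (adjusted p = 0.0623). Within run 1 Bub1b was called higher (log2 fold change 1.66, edgeR adjusted p = 0.0168) and within run 3 it gave 0.25, a difference between runs that was not called (edgeR adjusted p = 0.795). Without WT 5 Bub1b was called over both runs (edgeR adjusted p = 0.00693), and without KO 4 Bub3 (0.0249) and Cdc25a (0.0152) were called lower. For the anaphase-promoting complex, 1 of 16 was higher by unadjusted p, Anapc7 (log2 fold change 0.31), DESeq2 called 0, and Anapc2 gave 0.16.

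The 15 calls in these lists depended on the model. With no run term 13 of the 15 were lost, which left Fen1 and Orc2, and the calls over all genes went from 2315 to 672. With a marker list as covariate, 10 were lost for fibroblast, 8 for macrophage, 6 for acinar and 0 for endothelial markers. With Ogt f/f controls only 7 were lost, with FPKM 6 to 8, with DESeq2 2 and with limma-voom 1. The calls of Cul1, Orc2, Wdhd1, Fen1 and Rrm2b were kept without any 1 library. Men1 lost its call without WT 1, WT 4, WT 5, KO 3 or KO 4 (edgeR adjusted p up to 0.116). Fbxw7 lost it without WT 1, WT 2, WT 4, WT 5, KO 2, KO 3 or KO 4 (up to 0.129), and Ezh2 without WT 2, WT 3, WT 5 or any 1 KO library (up to 0.156). Ccng1 lost it without KO 2 or KO 3 (up to 0.0602), Cdk16 without WT 1, WT 4, WT 5, KO 1 or KO 4 (up to 0.112), and Ccnh without WT 2, WT 4, WT 5 or any 1 KO library (up to 0.0906). Gins3 lost it without WT 4, KO 1 or KO 3 (up to 0.0662), Rfc1 without WT 1, WT 4, KO 1 or KO 3 (up to 0.0862), Rfc3 without WT 2, WT 5, KO 1, KO 3 or KO 4 (up to 0.0852), and Dut without WT 1, KO 2 or KO 4 (up to 0.116).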

How the data were processed

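RNA was sequenced from hand-picked, overnight-cultured islets with a stranded low-input total RNA kit, per the labels' protocols. The authors deposited raw read counts per gene symbol (24420 rows) and FPKM values (24347 rows), 1 column per library, all of which matched a label. The submitters' processing notes name FastQC, Bowtie2 2.2.4.0, Cuffdiff 2.2.1, edgeR and mm10, with no role. The counting tool and its strand setting are not given in the sources used.

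The 34 genes, the lists and the tests were chosen with earlier results of these data known. After 27 symbols turned into dates were left out, counts were fitted with edgeR 4.0.16 (R 4.3.3), TMM normalization, its default filter by genotype group, and run plus genotype, with Benjamini-Hochberg adjustment over 12501 genes. Within-run contrasts and their difference came from a model of 4 genotype-by-run groups sharing 1 spread. Single genes also had an exact two-sided permutation test within runs on log2 CPM (prior count 2). DESeq2 1.42.0, limma-voom (limma 3.58.1), FPKM values on log2(FPKM + 1) or log2(FPKM + 0.1), other filters, scalings, samples and covariates were alternatives. The edgeR script was tested on simulated data. Within a group and run, the 6 pairs of replicates differed by 4.11 to 46.2 chi-square units per degree of freedom, more than sampling noise. Named genes were the 34, and from each list up to 4 called genes of lowest p, or up to 2 where none was called. Total counts of 3796043 to 6073537 set how precisely low genes are measured. Gene positions are from GENCODE (GRCm38), promoters from RefSeq (GRCm38.p6).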

Additional observations from a re-analysis of the deposited data

Results flagged for a closer look

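In 3 of 68 groups of 4 or 5 libraries (34 genes in WT and in KO), 1 library stood apart by Dixon's ratio of its gap to the range of the group, a share that chance alone gives in about 1 of 20 groups. Top2a in KO had a ratio of 0.836, because KO 1 at 11.6 CPM lay far below the next library at 48.7 CPM. Rrm2 in WT had a ratio of 0.791, with WT 1 at 0.489 CPM below the next at 2.37 CPM. Plk1 in WT had a ratio of 0.735, with WT 3 at 3.73 CPM above the next at 1.47 CPM.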

How the results depend on the processing

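Over both runs, the count of the 34 genes called higher was 1 and became 0 with no run term, without KO library 2 and WT library 2, with the acinar or the macrophage marker covariate, and with FPKM and no filter. It became 2 with Ogt f/f controls only, 3 with no filter on low counts (Mki67 and Top2a joined Mcm3) and 4 with the fibroblast marker covariate, and ranged from 0 to 2 without 1 replicate. An unchanged count can hide a swap: without WT libraries 2 and 5, Mcm7 was called (edgeR adjusted p = 0.0452) in place of Mcm3. The count called lower was 2 and became 1 with no run term. With only the libraries of each run, the count within run 1 went from 2 to 0 and within run 3 from 1 to 3. Without 1 replicate, an alternative added after seeing the data, these counts ranged from 0 to 3 and from 0 to 1. The causes were not tested. All other counts in DESeq2, limma-voom, RLE, Rn45s left out, the CPM filter and the endothelial covariate stayed within 1.5 times. In the 10 pathway lists, 7 genes were called higher and 8 lower. These counts became 1 and 1 with no run term, 3 and 5 with Ogt f/f controls only and with FPKM and no filter, 2 and 5 without WT libraries 2 and 5, and 3 and 4 with the macrophage covariate. The count lower became 4 without KO library 2 and WT library 2 and with the acinar covariate, and the count higher became 4 with FPKM at either pseudocount. Without 1 replicate they ranged from 3 to 9 and from 4 to 8. Under the fibroblast covariate they were 9 and 6, yet 10 of the 15 calls were lost. Apart from DESeq2 and no filter on low counts, these pathway alternatives were added after seeing the data. No paired analysis was possible because replicate numbers only follow the order of the samples. Genes at about 3 counts or fewer in a library, such as Cdkn2a and Ccnb1 in run 1 and Bub1 in WT 1, WT 2 and KO 1, are limited by depth.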
